A study of Mus musculus with 24 samples.

Results

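Immediate-early genes are transcribed within minutes of a signal such as a rise in cytosolic Ca2+. The 10 followed here were Fos, Fosb, Jun, Junb, Egr1, Egr3, Ier2, Nr4a1, Atf3 and Dusp1, chosen by name and found by their symbols as 10 of the 55421 genes in the count table. All 10 passed the filter on low counts, which kept 16593 genes, although Fosb had no more than 15 counts in any library. Expression was measured by RNA sequencing of poly(A) RNA from bone marrow-derived macrophages (BMDMs) grown with 10 ng/ml GM-CSF and 2 ng/ml TGF-β, a mixture used to obtain alveolar-like cells. Bone marrow came from C57/B6/J wildtype mice or from AhR-deficient mice, which carried the Ahr tm1Bra allele on both chromosomes (B6.129-Ahr tm1Bra/J) and so lacked the aryl hydrocarbon receptor (AhR), a ligand-activated transcription factor, in every cell. Cells were left unstimulated or received LPS, a bacterial ligand of TLR4, at 97 EU/ml from day 6 for 24 h, with 6 libraries in each of the 4 groups. The study's methods name both sexes for its mice as a whole, not per library, and a figure legend of the study gives a single experiment for these data. The study's methods give a range of young adult ages for its mice as a whole, and the labels give none per library and do not say whether an unstimulated and an LPS-stimulated culture shared an animal, so all libraries were treated as separate.

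The same protocol text stands with every library and ends with the Ca2+ ionophore A23187, a carrier that lets Ca2+ cross membranes, at 5 µM for 10 min. No culture without the ionophore was among the 24 libraries. The response to the ionophore itself therefore could not be measured, and each value below is a level in cells that, as the labels read, had all received it. The comparisons ask whether the level of an immediate-early gene under this shared end treatment differed with AhR, with LPS, or with LPS in a way that depended on AhR.

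A Ca2+ rise activates calmodulin-dependent kinases, calcineurin and MAP kinases, which phosphorylate or release transcription factors that are already present, such as CREB, the ternary complex factors beside SRF, and NFAT. These act on the promoters of immediate-early genes without new protein synthesis. Many of the genes encode transcription factors that carry the response to a later set of genes, and some encode inhibitors that end it. In macrophages the same genes also answer to TLR4 signalling, where the first burst is over within hours.

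The libraries held between 45106052 and 76992663 counts, and Fosb, Egr1, Egr3 and Nr4a1 still had 0 counts in at least 1 library. Library numbers run from 17 to 40 in 3 runs of 8 consecutive numbers, each with 2 libraries of every group, and the labels do not say what the runs stand for. Libraries also differed in a length slope, the slope of log2(CPM + 0.5) on log2 gene length less its mean over libraries, with the lowest slopes of -0.358 and -0.343 in unstimulated AhR-deficient library 19 and unstimulated wildtype library 33. Ahr averaged 28.3 ± 12.2 CPM (SD, n = 6) in unstimulated wildtype and 7.42 ± 2.39 CPM in unstimulated AhR-deficient BMDMs. After LPS it averaged 16.8 ± 7.63 CPM in wildtype and 43.1 ± 16.2 CPM in AhR-deficient BMDMs, so the order was opposite to the labels there. Counts were made over the whole gene, including exons that a deletion leaves in place, so they do not check the genotype, and the groups are named as labelled. The 11 macrophage markers summed to between 4980 and 10500 CPM in every library, all above 0, while T and B cell markers summed to at most 0.782 and 0.347 CPM.

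The promoters show what the members share in sequence. RefSeq entries on GRCm38.p6 were at hand for 7 of the 10 genes (Fos, Fosb, Jun, Junb, Nr4a1, Atf3 and Dusp1), and the 250 bases before each start were searched on both strands. The core of the cyclic AMP response element (CRE), TGACG, which CREB and ATF proteins bind, was found in 6 of the 7, all but Jun, and in 17.8% of all 32851 promoters in the set. Nr4a1 held 4 such cores, Dusp1 held 3, of which a pair overlap within a full palindromic CRE, TGACGTCA, Fos held 2, and Fosb, Junb and Atf3 held 1 each. The full CRE was found in 1.55% of all promoters and among the members in Dusp1 alone. An EGR site, GCGGGGGCG or GCGTGGGCG, stood in Fosb and Nr4a1 and in 3.06% of all promoters. No member window held a CArG box, the SRF site, or the AP-1 site TGACTCA, which 1.47% and 4.46% of all promoters held. The AhR core GCGTG stood in Fos, Junb, Nr4a1 and Atf3 and in 28.2% of all promoters, and its longer form TNGCGTG stood in none of the 7 and in 4.1% of all. These are matches of letters within the window and say nothing about binding, nor about sites further away.

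Shown here are the windows of the 4 genes that rose after LPS and that of Fos, which passed no test, 5′ to 3′ on the gene's own strand. Capitals mark the CRE core or full CRE and, in Nr4a1, also the EGR site, read on either strand. The windows lie at chr1:191183334-191183583 (minus strand) for Atf3, chr8:84978749-84978998 (minus) for Junb, chr15:101266596-101266845 (plus) for Nr4a1, chr17:26508520-26508722 (minus) for Dusp1 and chr12:85473640-85473889 (plus) for Fos. That of Dusp1 was ended after 203 bases, where GENCODE M21 places an exon. The last 7 bases of the Atf3 window, which hold its CRE core, also lie in an exon of that annotation and were left in. The windows of Atf3, Nr4a1 and Dusp1 lie inside the annotated span of the gene, before the RefSeq start, and those of Junb and Fos lie outside it.
Atf3: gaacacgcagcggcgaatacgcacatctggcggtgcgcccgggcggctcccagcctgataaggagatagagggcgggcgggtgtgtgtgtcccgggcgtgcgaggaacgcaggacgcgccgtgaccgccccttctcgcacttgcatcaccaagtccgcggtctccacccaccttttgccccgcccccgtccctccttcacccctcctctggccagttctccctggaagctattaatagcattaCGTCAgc
Junb: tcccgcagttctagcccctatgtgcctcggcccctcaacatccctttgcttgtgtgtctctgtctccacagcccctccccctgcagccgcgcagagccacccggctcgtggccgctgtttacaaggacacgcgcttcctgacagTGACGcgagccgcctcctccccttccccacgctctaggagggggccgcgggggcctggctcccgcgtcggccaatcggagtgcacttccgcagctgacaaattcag
Nr4a1: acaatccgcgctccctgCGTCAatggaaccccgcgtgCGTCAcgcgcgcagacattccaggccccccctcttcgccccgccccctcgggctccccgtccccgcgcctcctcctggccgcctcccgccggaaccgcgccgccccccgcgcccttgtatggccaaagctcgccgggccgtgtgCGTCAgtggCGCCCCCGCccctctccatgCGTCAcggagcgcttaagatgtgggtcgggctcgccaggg
Dusp1: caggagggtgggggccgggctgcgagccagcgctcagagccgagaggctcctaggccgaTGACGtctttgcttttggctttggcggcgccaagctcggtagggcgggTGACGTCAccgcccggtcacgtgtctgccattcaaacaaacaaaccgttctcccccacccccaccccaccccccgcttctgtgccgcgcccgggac
Fos: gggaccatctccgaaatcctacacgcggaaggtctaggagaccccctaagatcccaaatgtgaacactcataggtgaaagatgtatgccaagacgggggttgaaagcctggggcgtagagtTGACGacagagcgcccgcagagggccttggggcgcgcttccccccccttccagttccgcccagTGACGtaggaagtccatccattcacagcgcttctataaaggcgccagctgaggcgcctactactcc

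Levels between genes are compared as CPM per kb of merged exons, where CPM is the usual count relative to library size, here after TMM scaling. In unstimulated wildtype BMDMs the order was Junb with 37.0 ± 4.30 CPM per kb, then Ier2 with 20.2 ± 1.07, Jun with 11.7 ± 4.24, Atf3 with 10.5 ± 2.45, Dusp1 with 3.58 ± 0.815 and Fos with 2.32 ± 0.747. Below these came Egr3 with 0.78 ± 0.361 CPM per kb, Nr4a1 with 0.212 ± 0.106, Egr1 with 0.118 ± 0.098 and Fosb with 0.0229 ± 0.0131. Jun and Atf3, Dusp1 and Fos, Nr4a1 and Egr1, and Egr1 and Fosb overlapped within 1 SD and are not ordered by these group values. All genes were measured in the same libraries, and their order within single libraries was not tested. Among the 16593 tested genes, Junb stood at percentile 89.5, Fos at 48.5, Egr1 at 11.7 and Fosb at 3.21 of the level per kb. In LPS-stimulated AhR-deficient BMDMs Atf3 led with 279 ± 73.9 CPM per kb, percentile 97.9, followed by Junb with 223 ± 59.1 and Dusp1 with 66.6 ± 14.2, where Atf3 and Junb overlapped within 1 SD. Fos remained near the middle of the tested genes with 1.62 ± 0.95 CPM per kb, percentile 44.5.

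**Figure D1:**
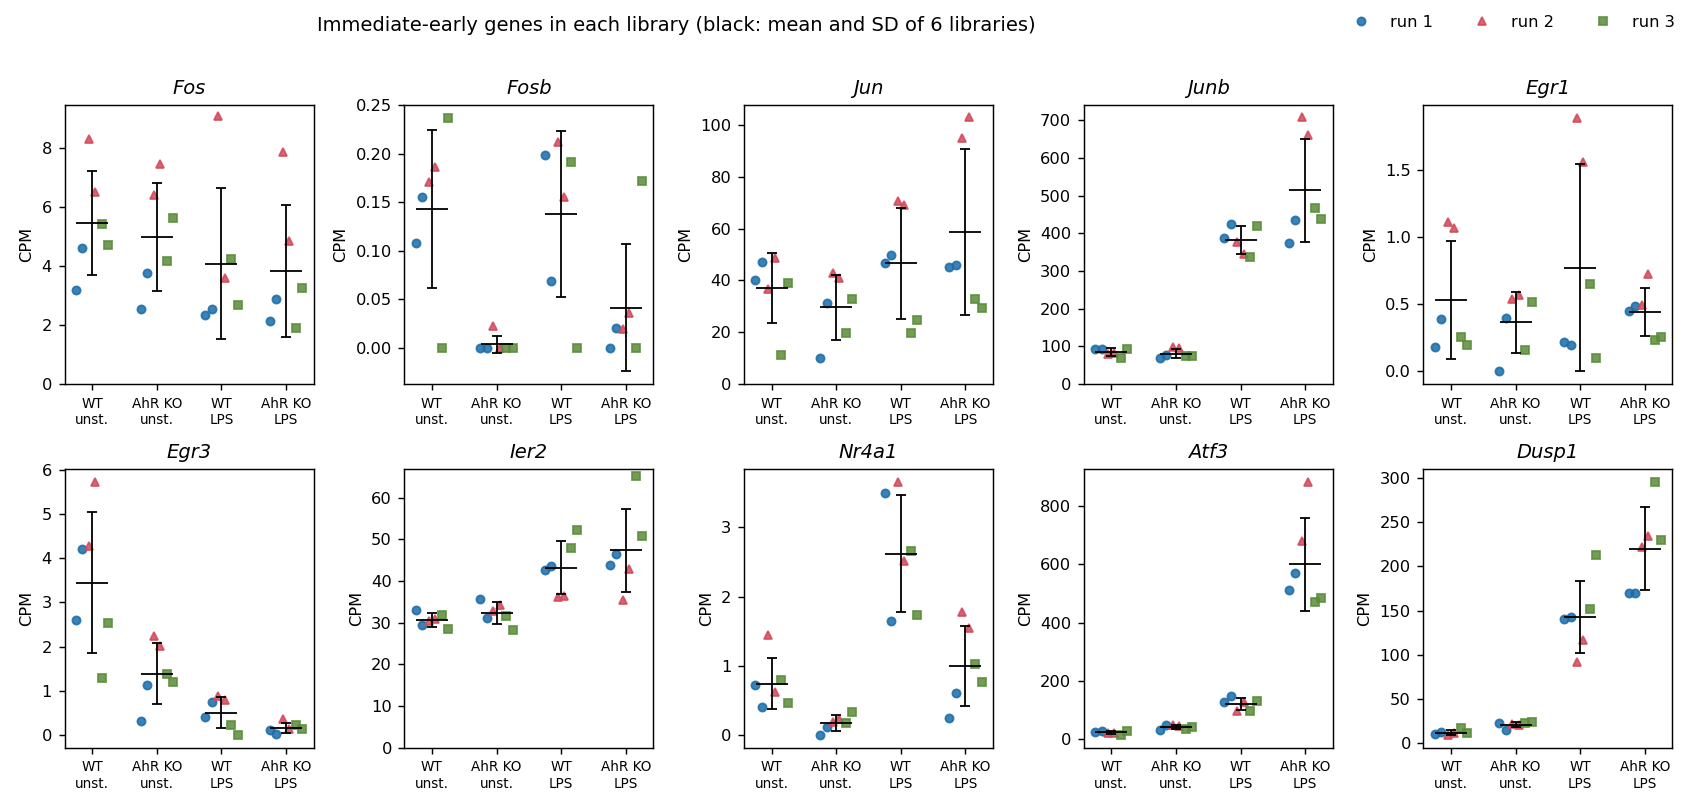
CPM of each member (vertical axes, linear, a scale of its own per gene) in the 24 libraries by group, with symbols for the 3 runs of library numbers and black bars for the mean and SD of 6 libraries. Atf3 lies at 472 to 885 CPM in LPS-stimulated AhR-deficient BMDMs, above every other group, while the groups of Fos, Jun and Egr1 overlap and the highest symbols of Fos and Egr1 in each group belong to run 2.

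A gene was called where edgeR's quasi-likelihood test gave an adjusted p (Benjamini-Hochberg over all 16593 genes) of at most 0.05 and the log2 fold change was 1 or more in size, a 2-fold difference. Without stimulation 2 members, Fosb and Nr4a1, were lower in AhR-deficient BMDMs, where 3.57% of all tested genes were called lower. Fosb passed the filter on low counts mainly through the wildtype libraries in which it was high, so its call is not independent of the filter. None of the 10 was called higher there by edgeR, DESeq2 or limma-voom, although 2 had an unadjusted p of at most 0.05, and the background was 0.916%. After LPS, 1 member, Atf3, was called higher in AhR-deficient BMDMs (background 2.17%). None was called lower by edgeR (background 6.19%), with 2 at an unadjusted p of at most 0.05, 2 called by DESeq2 and 1 by limma-voom. LPS raised 4 members, Junb, Nr4a1, Atf3 and Dusp1, and lowered 1, Egr3, in wildtype BMDMs, where 13.2% of all genes were called higher and 11.8% lower. In AhR-deficient BMDMs LPS raised the same 4 and lowered Egr3, with backgrounds of 15.1% and 15.7%, and DESeq2 called Fosb higher as well. The difference between both LPS effects, called at an adjusted p of at most 0.05 alone, was called higher for Atf3 (background 1.95%). It was called lower for no member by any of the 3 tools, with 0 at an unadjusted p of at most 0.05 (background 2.34%). The comparisons share groups, so their values are set side by side and not counted against each other. The median log2 fold change of the 10 members was -0.23 for genotype without stimulation and 0.02 after LPS, against -0.01 and -0.05 over all tested genes. For LPS it was 0.51 in wildtype and 1.73 in AhR-deficient cells and for the difference 0.28, against 0.03, -0.03 and -0.05.

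**Figure D2:**
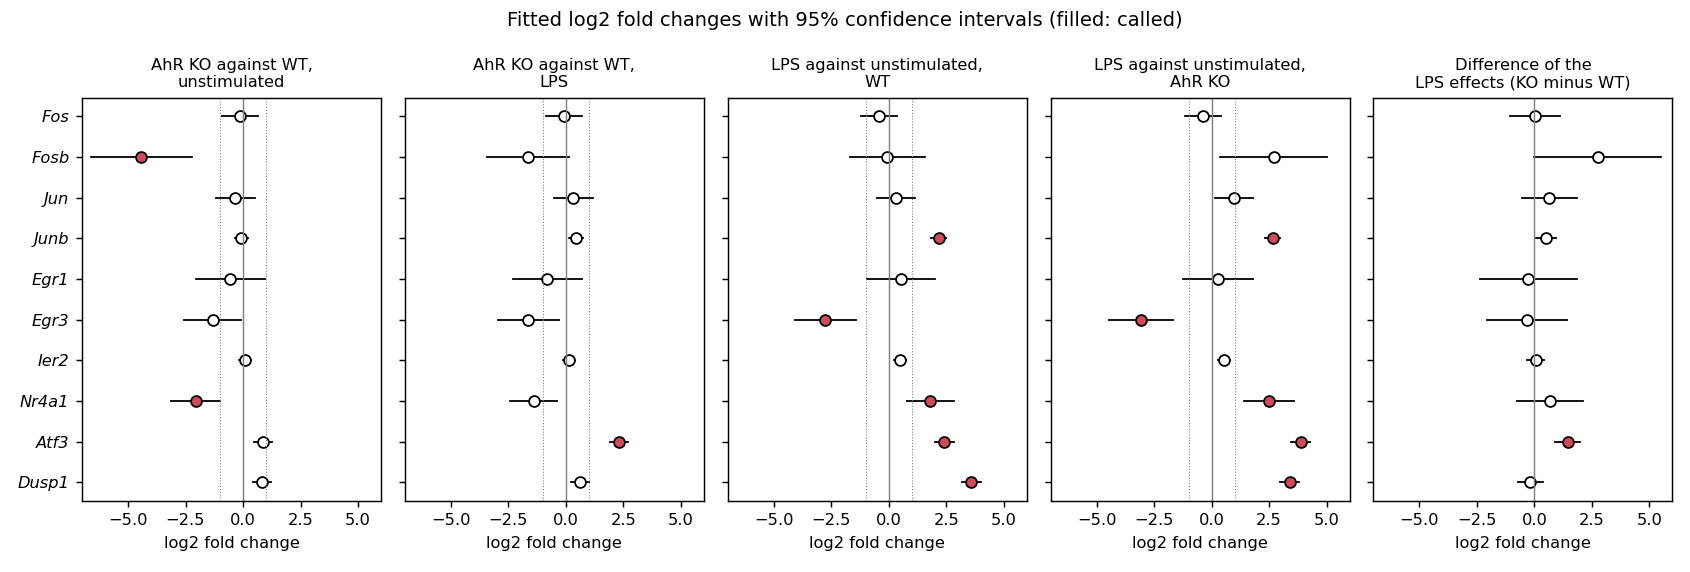
Fitted log2 fold changes of the 10 members (points, filled where called) with 95% confidence intervals (lines) in the 5 comparisons, with dotted lines at a log2 fold change of 1 in either direction. Atf3 is the member called in both LPS comparisons and in their difference, Egr3 is filled on the lower side in both LPS comparisons, and Fos has 5 intervals that cover 0.

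Fos encodes the founding member of the AP-1 family, a basic leucine zipper protein that pairs with Jun proteins. The gene (ENSMUSG00000021250) lies at chr12:85473890-85477273 of mm10 on the plus strand with 4 merged exons. Its level ran from 3.20 to 8.29 CPM with a median of 5.07 in unstimulated wildtype and from 2.54 to 7.46 CPM with a median of 4.90 in unstimulated AhR-deficient BMDMs. After LPS it ran from 2.35 to 9.06 CPM with a median of 3.14 in wildtype and from 1.91 to 7.85 CPM with a median of 3.07 in AhR-deficient BMDMs. The 4 groups overlapped almost fully, and LPS-stimulated wildtype library 29 stood apart with the highest value of all. The log2 fold change for genotype was -0.13 (95% CI -0.90 to 0.64, adjusted p = 1) without stimulation and -0.10 (-0.87 to 0.68, adjusted p = 0.96) after LPS. For LPS it was -0.42 (-1.19 to 0.35) in wildtype and -0.39 (-1.16 to 0.39) in AhR-deficient BMDMs, with adjusted p = 0.41 and 0.44. The intervals reach from -1.19 to 0.68 over these comparisons, so equal levels are not shown.

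Fosb, a close relative of Fos that also pairs with Jun proteins (ENSMUSG00000003545, chr7:19302696-19310051, minus strand, 2 merged exons), was the scarcest member. Its 6 libraries held 62 counts in all in unstimulated wildtype and 2 in unstimulated AhR-deficient BMDMs, both of the latter in library 27. After LPS the groups held 47 and 13 counts, of which 9 fell in AhR-deficient library 40. In wildtype the CPM reached 0.237 without and 0.212 with LPS, and 1 wildtype library of each state, 33 and 38, had no count, so the groups overlapped. The fit gave a log2 fold change of -4.42 (SE 1.05, adjusted p = 0.0091) for genotype without stimulation. With so few counts the fitted value depends on the fit's prior, and the ratio of counts per sequenced count, wildtype over AhR-deficient, was 31.5 with an exact 95% interval of 8.35 to 266 that covers counting error alone. After LPS the difference was -1.66 (SE 0.86, adjusted p = 0.27), with a count ratio of 3.83 (2.04 to 7.72), and without library 40 it was -2.97 with an adjusted p of 0.045. LPS gave -0.06 (SE 0.78, adjusted p = 0.97) in wildtype and 2.70 (SE 1.12, adjusted p = 0.054) in AhR-deficient BMDMs. The latter rests on library 40, without which it was 1.40 (adjusted p = 0.36), and on the counts of library 27, without which it was 4.37 (adjusted p = 0.022). It also passed the threshold without any 1 of the libraries 23, 33, 38 or 39, with values from 2.71 to 2.96, and by DESeq2 (2.95, adjusted p = 0.042), with the length slope in the model (2.84, adjusted p = 0.034) and over the libraries with Y-linked counts (2.70, adjusted p = 0.042).

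Jun, the partner of Fos proteins in AP-1, is a gene with a single exon (ENSMUSG00000052684, chr4:95049034-95052222, minus strand). The antisense gene Junos overlaps it on the other strand, and counting used strand. Its level ran from 11.3 to 48.6 CPM (median 39.6) in unstimulated wildtype and from 9.99 to 43.0 CPM (median 31.9) in unstimulated AhR-deficient BMDMs. With LPS the range was from 19.7 to 70.6 CPM (median 48.2) in wildtype and from 29.5 to 103 CPM (median 45.5) in AhR-deficient BMDMs. The groups overlapped throughout, and the values of 9.99 and 11.3 CPM belong to libraries 19 and 33, those with the lowest length slopes. No comparison passed the test in the fit without covariates, and with the length slope in the model the difference of LPS effects did (0.89, adjusted p = 0.0068). LPS gave 0.33 (SE 0.40, adjusted p = 0.57) in wildtype and 0.98 (SE 0.40, adjusted p = 0.052) in AhR-deficient BMDMs, and leaving out any of the AhR-deficient libraries 27, 28, 39 or 40 took the latter past both thresholds with values of 1.10 to 1.12. Leaving out library 32 gave 0.75 (adjusted p = 0.15), and total library size in place of TMM gave 0.47 (adjusted p = 0.40). The genotype differences were -0.33 and 0.33 (SE 0.40 each, adjusted p = 0.99 and 0.77). With the length slope in the edgeR model they were -0.47 and 0.42 (adjusted p = 0.041 and 0.04), past the p threshold and under the minimum fold change.

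Junb, a Jun protein that can also restrain AP-1 activity (ENSMUSG00000052837, chr8:84974484-84978718, minus strand, 3 merged exons, overlapped by Prdx2 on the other strand), rose with LPS in both genotypes. It ran from 69.0 to 93.6 CPM (median 87.3) in unstimulated wildtype and from 69.0 to 97.5 CPM (median 75.7) in unstimulated AhR-deficient BMDMs. In LPS-stimulated cells it ran from 337 to 425 CPM (median 382) in wildtype and from 375 to 708 CPM (median 452) in AhR-deficient BMDMs. Every LPS library exceeded every unstimulated library, while the genotypes overlapped in both states. LPS raised Junb 4.49-fold in wildtype (log2 2.17, SE 0.15, adjusted p = 9.9e-11) and 6.35-fold in AhR-deficient BMDMs (log2 2.67, SE 0.16, adjusted p = 1.8e-12). The genotype difference after LPS was 0.43 (SE 0.15, adjusted p = 0.058), and it came to 0.92 on the log2(CPM + 0.5) scale within run 2 and to 0.00 and 0.27 within the other runs.

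Egr1 and Egr3 encode zinc finger transcription factors that bind GC-rich sites and are classical targets of SRF, with Egr3 also known as a target of calcineurin and NFAT. Egr1 (ENSMUSG00000038418, on chromosome 18, plus strand, 2 merged exons) ran from 0.175 to 1.11 CPM (median 0.316) in unstimulated wildtype and from 0 to 0.562 CPM (median 0.454) in unstimulated AhR-deficient BMDMs. Under LPS the values ran from 0.0979 to 1.89 CPM (median 0.433) in wildtype and from 0.232 to 0.722 CPM (median 0.465) in AhR-deficient BMDMs. The groups overlapped in all comparisons, the 2 highest wildtype libraries of each state came from run 2, and unstimulated AhR-deficient library 19 had no count. The log2 fold changes were -0.55 and -0.81 for genotype without and with LPS, then 0.54 and 0.27 for the LPS effect by genotype (SE 0.72 to 0.73, adjusted p from 0.61 to 1). The 95% intervals ran from -2.05 to 0.95 and from -2.32 to 0.69 for genotype without and with LPS. For LPS they ran from -0.95 to 2.02 in wildtype and from -1.24 to 1.78 in AhR-deficient BMDMs, and for the difference from -2.38 to 1.85. Each covered 0 and a 2-fold change in at least 1 direction, so equal levels are not shown.

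Egr3 (ENSMUSG00000033730, chr14:70077203-70082614, plus strand, 4 merged exons) was the member that fell with LPS. It ran from 1.29 to 5.73 CPM (median 3.39) in unstimulated wildtype and from 0.317 to 2.24 CPM (median 1.30) in unstimulated AhR-deficient BMDMs. LPS-stimulated libraries ran from 0 to 0.882 CPM (median 0.569) in wildtype and from 0.0202 to 0.354 CPM (median 0.130) in AhR-deficient BMDMs. All LPS-stimulated wildtype libraries lay below all unstimulated ones, whereas in AhR-deficient BMDMs the groups overlapped. LPS lowered Egr3 6.72-fold in wildtype (log2 -2.75, SE 0.63, adjusted p = 0.0012) and 8.38-fold in AhR-deficient BMDMs (log2 -3.07, SE 0.67, adjusted p = 5.5e-04). The genotype differences were -1.31 (SE 0.60, adjusted p = 0.31) and -1.63 (SE 0.65, adjusted p = 0.11), neither past the threshold. With the length slope as a covariate they were -1.39 and -1.33 with adjusted p = 0.017 and 0.039, and without wildtype library 38 the latter was -1.89 with adjusted p = 0.021. Leaving out other libraries gave -2.02 to -1.40 without a call. DESeq2 called it lower (adjusted p = 0.048), and edgeR did so over the libraries with Y-linked counts (-1.88, adjusted p = 0.026), whereas limma-voom gave -1.24 (adjusted p = 0.55).

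Ier2, a small nuclear protein of the early growth response with a gene of 1 exon (ENSMUSG00000053560, chr8:84661331-84662854, minus strand), varied least among the abundant members. It ran from 28.6 to 33.1 CPM (median 30.8) in unstimulated wildtype and from 28.3 to 35.8 CPM (median 32.1) in unstimulated AhR-deficient BMDMs. After LPS it ran from 36.2 to 52.2 CPM (median 43.1) in wildtype and from 35.5 to 65.1 CPM (median 45.1) in AhR-deficient BMDMs. In wildtype the LPS libraries all exceeded the unstimulated ones, and in AhR-deficient BMDMs the groups touched at 35.5 and 35.8 CPM. The LPS differences of 0.49 (SE 0.13, adjusted p = 0.0033) and 0.55 (SE 0.13, adjusted p = 8.9e-04) were 1.40-fold and 1.47-fold and so were not called. They depend on the scaling, being 0.13 and 0.06 with total library sizes in place of TMM. That scaling moved the median of all tested genes by -0.34 for the LPS effect in wildtype and by -0.48 in AhR-deficient cells. It moved it by -0.22 for genotype after LPS, by -0.08 without stimulation and by -0.13 for the difference of the LPS effects.

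Nr4a1 encodes Nur77, an orphan nuclear receptor that responds to antigen receptors, Ca2+ and TLR ligands and limits inflammatory genes in myeloid cells (ENSMUSG00000023034, chr15:101254269-101274795, plus strand, 10 merged exons). It ran from 0.411 to 1.44 CPM (median 0.677) in unstimulated wildtype and from 0 to 0.333 CPM (median 0.180) in unstimulated AhR-deficient BMDMs, without overlap. With LPS the range was from 1.65 to 3.66 CPM (median 2.59) in wildtype and from 0.242 to 1.77 CPM (median 0.899) in AhR-deficient BMDMs, overlapping through AhR-deficient library 31 alone. Without stimulation the level was 4.17-fold lower in AhR-deficient BMDMs (log2 -2.06, SE 0.52, adjusted p = 0.015). Fitted on these 2 groups alone, the difference was -2.03 with an adjusted p of 0.061 and was not called. After LPS it was -1.39 (SE 0.49, adjusted p = 0.068), short of the threshold. It was called by DESeq2 (-1.37, adjusted p = 0.013), by limma-voom (-1.59, adjusted p = 0.019), and by edgeR with the runs as a factor (-1.58, adjusted p = 0.0095), the length slope in the model (-1.38, adjusted p = 0.012) or total library size (-1.64, adjusted p = 0.029). Without library 31 it was -1.64 (adjusted p = 0.043) and without library 19 -1.40 (adjusted p = 0.019), whereas without library 23 it was -1.20 (adjusted p = 0.13) and without library 24 -1.29 (adjusted p = 0.14). The sign was negative in each run in both states, with -0.57 to -1.06 without and -0.71 to -1.69 with LPS on the log2(CPM + 0.5) scale, a scale that understates changes of a gene this low. LPS raised Nr4a1 3.52-fold in wildtype (log2 1.81, SE 0.50, adjusted p = 0.0055) and 5.57-fold in AhR-deficient BMDMs (log2 2.48, SE 0.53, adjusted p = 4.4e-04). The difference between these LPS effects was 0.66 (SE 0.69, adjusted p = 0.90).

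Atf3, a member of the ATF/CREB family that represses many TLR-induced cytokine genes and is also induced by cell stress, gave the largest genotype difference of the members after LPS (ENSMUSG00000026628, chr1:191170296-191218039, minus strand, 5 merged exons). It ran from 13.5 to 28 CPM (median 23) in unstimulated wildtype and from 31.4 to 49.6 CPM (median 43.3) in unstimulated AhR-deficient BMDMs. In LPS-stimulated cells it ran from 95.7 to 148 CPM (median 128) in wildtype and from 472 to 885 CPM (median 541) in AhR-deficient BMDMs. No groups overlapped in any of the 4 comparisons, so that the levels stepped up from unstimulated wildtype over unstimulated AhR-deficient and LPS-stimulated wildtype to LPS-stimulated AhR-deficient BMDMs. Without stimulation the genotype difference was 1.83-fold (log2 0.87, SE 0.19, adjusted p = 0.0036), past the p threshold and under the minimum of 2-fold. After LPS it was 4.98-fold (log2 2.32, SE 0.19, adjusted p = 2.0e-08). LPS raised Atf3 5.34-fold in wildtype and 14.6-fold in AhR-deficient BMDMs (log2 2.42 and 3.87, SE 0.19 and 0.21, adjusted p = 7.9e-10 and 4.6e-13). The LPS effect was thus 2.73-fold larger in AhR-deficient BMDMs (log2 1.45, SE 0.26, 95% CI 0.91 to 1.99, adjusted p = 0.0016). Within the 3 runs the genotype difference after LPS was 1.98, 2.80 and 2.10 on the log2(CPM + 0.5) scale. Under all alternatives tried, the interaction ranged from 1.30 to 1.55 and stayed past the threshold.

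Dusp1, the phosphatase MKP-1 that inactivates p38 and JNK and so ends MAP kinase signalling (ENSMUSG00000024190, chr17:26505590-26562128, minus strand, 6 merged exons, overlapped by Ergic1 on the other strand), rose with LPS more than 10-fold. It ran from 9.47 to 16.9 CPM (median 11) in unstimulated wildtype and from 14.8 to 23.9 CPM (median 21.7) in unstimulated AhR-deficient BMDMs. Under LPS the values ran from 91.3 to 213 CPM (median 141) in wildtype and from 170 to 296 CPM (median 226) in AhR-deficient BMDMs. States were fully separated by LPS, and the genotypes overlapped in each state with the AhR-deficient median the higher of the 2. LPS raised Dusp1 12-fold in wildtype (log2 3.59, SE 0.21, adjusted p = 3.6e-12) and 10.6-fold in AhR-deficient BMDMs (log2 3.40, SE 0.20, adjusted p = 2.7e-12). The genotype differences of 1.76-fold without stimulation (log2 0.82, SE 0.19, adjusted p = 0.0064) and 1.55-fold after LPS (log2 0.63, SE 0.19, adjusted p = 0.026) passed the p threshold but not the minimum fold. With no minimum fold change, Atf3 and Dusp1 would be called higher without stimulation, where 1.83% of all tested genes would be. Both would be called higher after LPS too, against 4.33% of all genes. None would be added on the lower side by edgeR, where the shares are 4.29% without stimulation and 8.3% after LPS. For the LPS effects that rule would add Ier2 in both genotypes, against 19.7% of genes higher and 18.3% lower in wildtype and 22.1% and 22.6% in AhR-deficient BMDMs. The difference of the LPS effects was -0.19 (95% CI -0.73 to 0.35, adjusted p = 0.97).

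Other members gave no call for that difference of LPS effects in the fit without covariates. It was 0.03 for Fos, 0.65 for Jun, 0.06 for Ier2, -0.26 for Egr1, -0.32 for Egr3 and 2.75 (SE 1.34, adjusted p = 0.37) for Fosb. For Junb it was 0.50 (SE 0.21, adjusted p = 0.25). With the length slope in the model both Jun proteins were called, Jun with 0.89 (adjusted p = 0.0068) and Junb with 0.51 (adjusted p = 0.038). A p that misses the threshold does not show equal LPS effects, and edgeR recovered 36% of altered genes (log2 difference 2) in a simulation of this contrast. The simulation gave every gene the same dispersion, so 36% does not describe single members. Their SE for this difference ran from 0.18 for Ier2 to 1.34 for Fosb.

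Markers of other cell types moved with genotype beside these results. Of all tested genes 0.916% were called higher and 3.57% lower in AhR-deficient BMDMs without stimulation, and 2.17% and 6.19% after LPS. Of 7 tested dendritic cell markers 5 were called lower and 1 higher without stimulation and 6 lower after LPS in AhR-deficient BMDMs, with Cd207 at 0 in all LPS-stimulated AhR-deficient libraries. Their sum ran from 77.4 to 223 CPM in unstimulated wildtype against 9.95 to 19.4 CPM in unstimulated AhR-deficient BMDMs, and from 585 to 2460 against 101 to 894 CPM after LPS. Neutrophil markers (7 tested) gave 6 and 4 lower calls, with sums of 1500 to 12000 against 225 to 745 CPM and of 654 to 8050 against 130 to 973 CPM. Mast cell or basophil markers (8 tested) gave 6 lower calls in each state, with sums of 9.69 to 29.3 against 2.33 to 5.17 CPM without stimulation and of 334 to 518 against 534 to 836 CPM after LPS, where Hdc made up most of the sum. Stromal markers (5 tested) gave 1 call, Dcn, higher in AhR-deficient BMDMs after LPS. Of the macrophage markers, Siglecf without stimulation and Fcgr1 after LPS were called higher and none lower. The part of these shifts in the genotype differences of Nr4a1, Fosb, Atf3 and Dusp1 was not tested, and in bulk RNA fewer cells of a type cannot be told apart from less RNA per cell.

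The members did not vary from library to library to the same extent. After group means were removed, the SD of log2(CPM + 0.5) was 0.764 for Jun, higher than for 86.6% of tested genes, and 0.580 for Egr1, 0.575 for Fos and 0.545 for Egr3, between percentiles 72.1 and 75.4. Ier2 with 0.191 and Junb with 0.238 stood at percentiles 6.89 and 15.7, and Fosb with 0.163 at 3.78, where low counts compress the scale. Levels also differed between the runs of library numbers. Fos averaged 3.01 ± 0.832, 6.75 ± 1.82 and 4 ± 1.31 CPM (SD, n = 8) in runs 1, 2 and 3. Egr1 averaged 0.286 ± 0.166, 0.992 ± 0.518 and 0.292 ± 0.189 CPM, and Jun 39.5 ± 13.2, 63.4 ± 25.3 and 26.3 ± 9.03 CPM. The lowest Egr1 value in run 2 was 0.492 CPM and the highest in run 1 was 0.485 CPM, so these runs did not overlap, while run 3 reached 0.648 CPM. Each run held 2 libraries of every group.

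**Figure D3:**
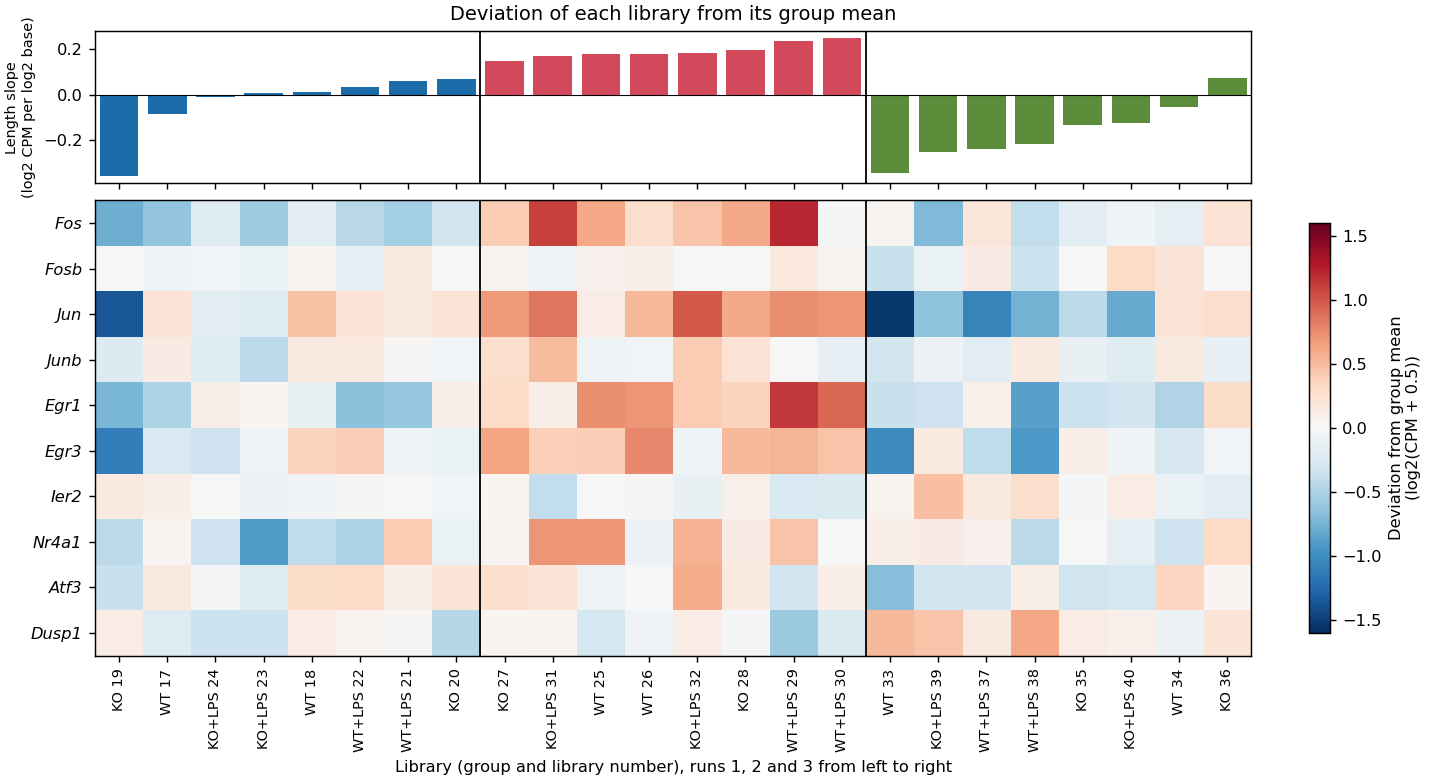
Deviation of each library from its group mean in log2(CPM + 0.5) (colour, rows are members) for 24 libraries (columns, ordered by run and within runs by length slope), with the length slope of each library above as bars. Fos, Jun, Egr1 and Egr3 are mostly red in run 2, and Jun and Egr3 are darkest blue in libraries 19 and 33, which have the lowest slopes.

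Deviations from the group means were also related to the length slope of the library over 24 libraries, with the slope centred within groups, 100000 permutations within groups and Benjamini-Hochberg adjustment over 10 relations. Jun followed the slope most closely (Pearson's r = 0.93, permutation p = 1e-05, the smallest that these permutations can give, adjusted p = 1.0e-04). Spearman's rho was 0.86 (p = 1.0e-05 by permutation), and r was 0.90 without libraries 19 and 33. Egr3 (r = 0.81, rho = 0.78), Egr1 (0.76, 0.82), Fos (0.62, 0.65) and Atf3 (0.58, 0.41) had positive and Ier2 (-0.67, -0.65) and Dusp1 (-0.61, -0.60) negative relations with an adjusted permutation p of at most 0.0068 for r. For Atf3 rho did not pass (adjusted permutation p = 0.069). For Junb r was 0.45 (adjusted permutation p = 0.035) and 0.32 without libraries 19 and 33, and rho was 0.43 (adjusted permutation p = 0.053). All slopes of run 2 lay above those of the other runs, so the relations were also taken within runs of 8 libraries. There 1 of 30 passed the adjusted threshold in an exact permutation test, Jun in run 3 (r = 0.91, exact p = 0.0013, adjusted p = 0.039), and 8 had an unadjusted p of at most 0.05. For Jun r was 0.90 in run 1 and -0.13 in run 2. In run 2 r was also negative for Fos (-0.12), Junb (-0.70), Nr4a1 (-0.11) and Atf3 (-0.52), each positive over all libraries. For Ier2 and Dusp1 r was negative in all 3 runs, and for Egr1 and Egr3 positive in all 3, from 0.41 to 0.78 and from 0.01 to 0.85. The median r of all tested genes with the slope was 0.01. The share of tested genes that would pass was not taken, so these relations are not read as particular to the members. Whether the slope stands for RNA quality was not tested.

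**Figure D4:**
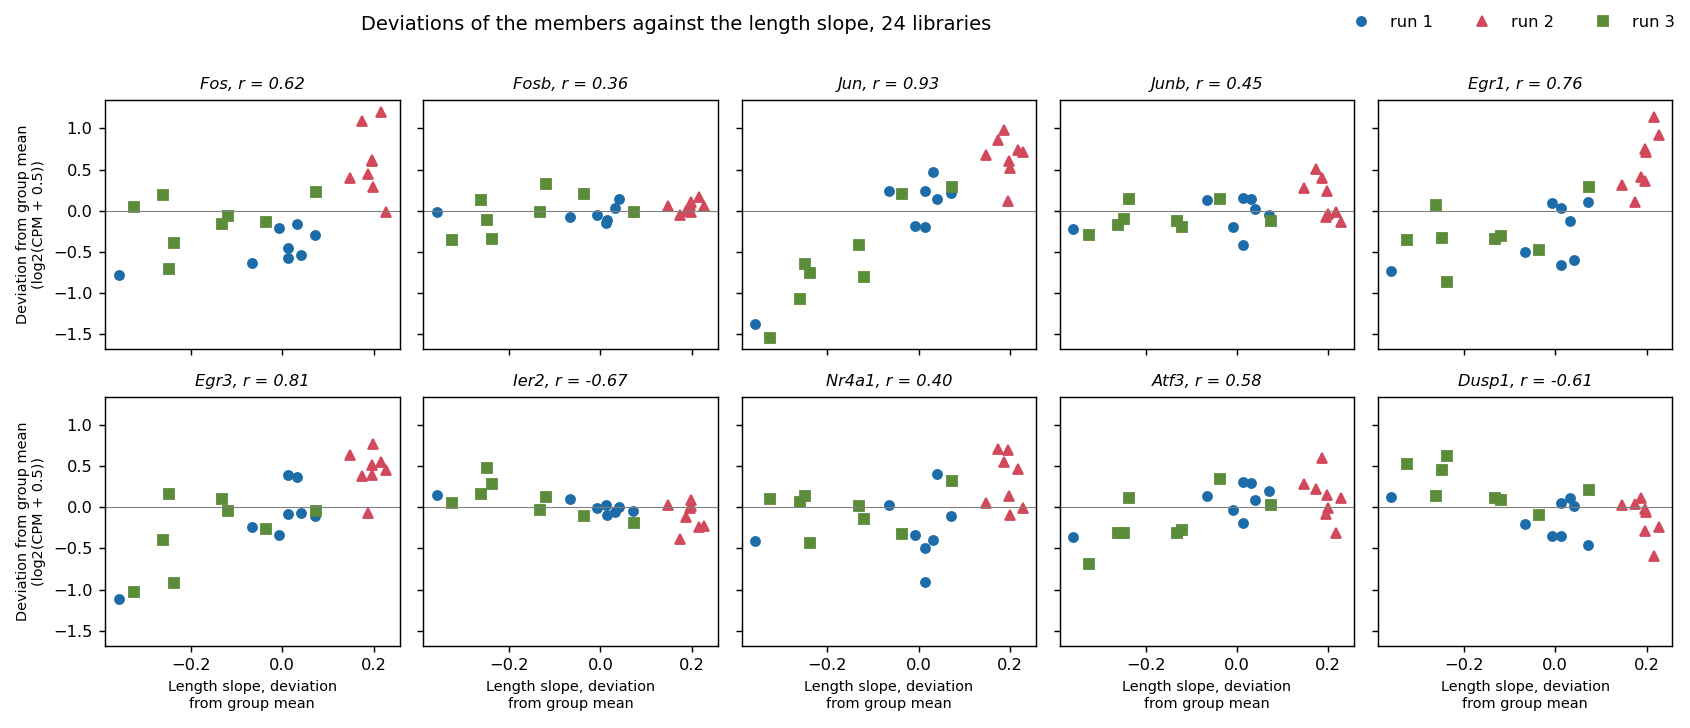
Deviation from the group mean in log2(CPM + 0.5) (vertical) against the length slope of the library, also as a deviation from its group mean (horizontal), for 24 libraries per member with symbols for the 3 runs. Jun rises along the slope with r = 0.93 over all libraries, Ier2 and Dusp1 decline with r = -0.67 and -0.61, and the run 2 libraries sit to the right in every panel.

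Members were then compared with each other on these deviations in 45 pairs. Pearson's r ran from -0.63 to 0.78 with a median of 0.22, and 13 pairs passed an adjusted permutation p of 0.05, of which 9 were positive. The share of all pairs of tested genes that would pass was not taken, so this count is not read as a trait of the members. The closest pairs were Jun and Egr3 (r = 0.78, rho = 0.70, adjusted permutation p = 0.0015 for r), Junb and Atf3 (r = 0.77, rho = 0.81, adjusted permutation p = 0.0015), Jun and Atf3 (r = 0.76, rho = 0.65, adjusted permutation p = 0.0038) and Fos and Egr1 (r = 0.73, rho = 0.77, adjusted permutation p = 0.0015). Without the 2 libraries farthest from the median, r was 0.63, 0.75, 0.64 and 0.73. Negative pairs joined Ier2 with Fos, Jun and Egr1 (r = -0.58, -0.63 and -0.52) and Dusp1 with Egr1 (-0.56). By rho the adjusted permutation p was 0.12, 0.014, 0.052 and 0.094, so Ier2 with Jun alone passed. Without the 2 farthest libraries r was -0.36, -0.69, -0.38 and -0.35. When deviations were taken within each group and run, 0 of the 45 pairs passed the threshold. Leaving out unstimulated AhR-deficient library 19 left 7 pairs, and leaving out LPS-stimulated wildtype library 29 left 8. Each group has 2 libraries in a run, so those deviations are few.

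**Figure D5:**
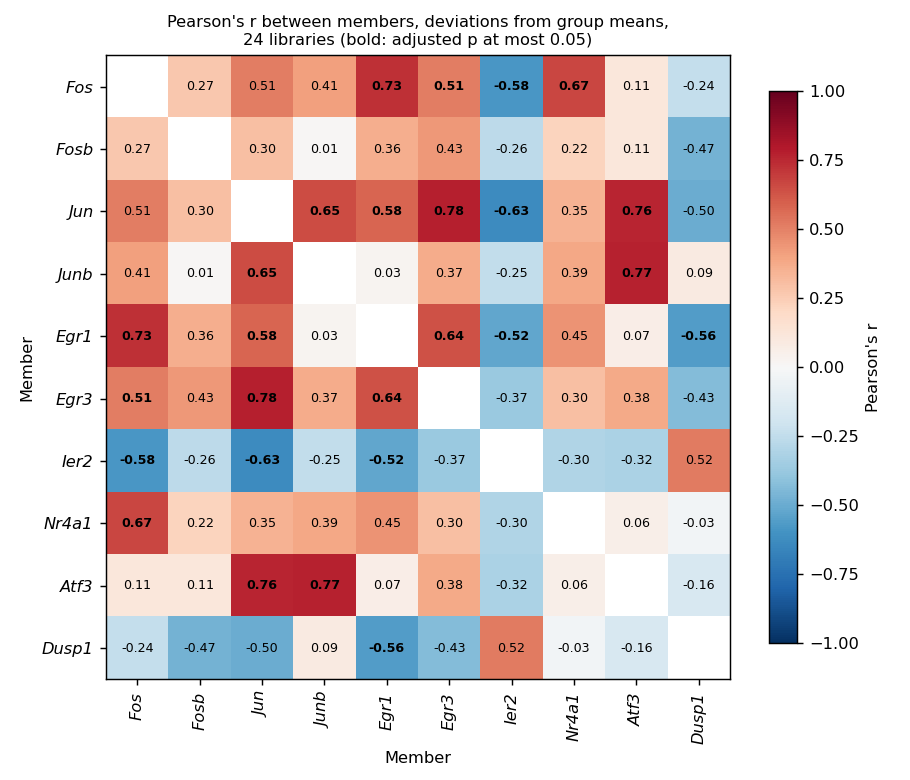
Pearson's r (colour and number) between the deviations of each pair of members from their group means over 24 libraries, in bold where the adjusted permutation p was at most 0.05. Jun, Egr1, Egr3 and Fos share positive values up to 0.78, and the row of Ier2 is negative except for Dusp1 with 0.52.

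Among tested genes outside the set, those whose deviations were much like the mean standardized deviation of the 10 members over 24 libraries included Parp10 (r = 0.91), Gapdh (0.90), Rbms2 (0.90) and Alkbh5 (0.90). The most alike gene per member was Adam8 for Jun (0.99), Penk for Nr4a1 (0.92), 1700017B05Rik for Egr1 (0.92), Wdr76 for Egr3 (0.91), Rnf19b for Atf3 (0.91), Hpse for Junb (0.90), Arf2 for Ier2 (0.89), Vldlr for Fos (0.88), Zc2hc1a for Dusp1 (0.88) and Gm13375 for Fosb (0.79). These are among the highest values of all tested genes, over libraries that share runs and length slopes, and are given as descriptions.

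Other immediate-early transcription factors were followed as a list of 18 genes, of which 16 were tested and Egr4 and Npas4, a gene best known from neurons, were not. LPS raised 6 and lowered 2 in wildtype and raised 7 and lowered 4 in AhR-deficient BMDMs, with median log2 fold changes of 1.05 and 1.17. Of all tested genes 13.2% were called higher and 11.8% lower in wildtype and 15.1% and 15.7% in AhR-deficient BMDMs, which is the background for the LPS counts of each list that follows. For the genotype counts it is 0.916% higher and 3.57% lower without stimulation and 2.17% and 6.19% after LPS, and for the difference of LPS effects 1.95% and 2.34%. Csrnp1 rose by 2.85 (SE 0.24, adjusted p = 1.2e-09) and 3.84 (SE 0.25, adjusted p = 9.2e-12). Nr4a3, the paralog of Nr4a1, rose by 3.15 and 4.04, while the growth regulator Myc gave -2.55 and -4.57, both called. Klf4 fell by 3.20 in wildtype, where its mean went from 31.6 to 3.43 CPM, and in AhR-deficient BMDMs its mean went from 54.2 to 5.82 CPM. The Fos relative Fosl1 rose by 6.27 (SE 1.19, adjusted p = 1.4e-04) in AhR-deficient BMDMs, from 0.0504 to 4.31 CPM, and its means in wildtype were 0.248 and 0.83 CPM. Between genotypes none was called without stimulation by edgeR, with 2 higher and 3 lower at an unadjusted p of at most 0.05, 1 called lower by DESeq2 and none by limma-voom. After LPS Egr2 was called higher in AhR-deficient BMDMs (1.13, SE 0.28, adjusted p = 0.0083), averaging 87.6 CPM against 40.2 CPM. The LPS effect was larger in AhR-deficient BMDMs for Maff, a small Maf protein without an activation domain (1.28, SE 0.13, adjusted p = 2.2e-06).

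Early feedback inhibitors, a list of 24 genes all tested, include relatives of Dusp1, mRNA decay factors and inhibitors of NF-κB. Without stimulation 6 were lower and none higher in AhR-deficient BMDMs, with a median log2 fold change of -0.55, and the counts by DESeq2 were 7 and 0, by limma-voom 6 and 0, with 1 higher at an unadjusted p of at most 0.05. Of all tested genes 3.57% were called lower there. The 4 largest were Gadd45b (-1.77), Rgs1 (-1.70), Ier3 (-1.53) and the ERK phosphatase Dusp6 (-1.49, SE 0.20, adjusted p = 2.2e-05), without overlap between the genotypes, opposite in sign to Dusp1 with 0.82. After LPS 1 of the 24 was higher, Rgs1 (1.31), and 1 lower, Dusp2 (-1.54), with 2.17% and 6.19% of all tested genes called, so nothing is read from these counts. LPS raised 14 and lowered 1 in wildtype and raised 16 and lowered 2 in AhR-deficient BMDMs, led by Dusp4 (5.16 and 7.21), against 13.2% and 15.1% of all tested genes higher. The LPS effect was larger in AhR-deficient BMDMs for 4, Rgs1 (3.01), Ier3 (2.14), Gadd45b (1.61) and Dusp6 (1.31), with adjusted p between 1.9e-04 and 0.038 (1.95% of all tested genes), and limma-voom called 3. For each of these 4 the interaction therefore included a lower start without stimulation, whereas Atf3 started higher in AhR-deficient BMDMs.

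Early-response effectors, 16 genes that include the prostaglandin synthase Ptgs2 and the cytokines Tnf and Il1b, were raised by LPS in 12 and 11 cases (13.2% and 15.1% of all tested genes), and 0 and 1 were lowered (11.8% and 15.7%). Ptgs2 rose by 9.38 in wildtype and 12.28 in AhR-deficient BMDMs on the log2 scale. Without stimulation 1 was higher and 1 lower in AhR-deficient BMDMs, the latter being Gem, a Ca2+-channel regulating GTPase (-4.72, SE 0.31, adjusted p = 6.3e-10, 17 against 0.642 CPM). After LPS 2 were higher, Ptgs2 (2.49) and Plaur (1.21), and 2 lower, Arc (-4.15) and Sgk1 (-1.21), against 2.17% and 6.19% of all tested genes, and DESeq2 and limma-voom each called 3 higher. The difference of LPS effects was called higher for 4, among them Gem (4.38) and Tnf (1.26), and lower for 1, Sgk1 (-1.25), against 1.95% and 2.34% of all tested genes. DESeq2 also called 4 higher and limma-voom 2.

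Genes that stand upstream of the members were followed in 4 lists. Of SRF and its cofactors (6 tested) none was called in any comparison by edgeR or limma-voom and 1 was called lower after LPS in AhR-deficient BMDMs by DESeq2. At an unadjusted p of at most 0.05, 1 was higher without stimulation, 1 was higher and 1 lower after LPS, and 2 and 3 were higher with LPS in wildtype and AhR-deficient BMDMs. Of 12 genes for Ca2+ entry and stores none was called between genotypes by edgeR or limma-voom, with 2 and 4 lower at an unadjusted p of at most 0.05 and 1 lower by DESeq2 in each state. LPS lowered the store pump Atp2a3 (-2.59 and -2.81) and raised the channel Orai2 (1.42 and 1.40), with Atp2b4 (4.32) raised in AhR-deficient BMDMs as well. Of 24 calcineurin, NFAT, CaM kinase and CREB genes 1 was lower in AhR-deficient BMDMs after LPS and none was called without stimulation, with 1 lower at an unadjusted p of at most 0.05 and 0 by either other tool. LPS raised 5 and lowered 3 in either genotype, among them Crem (2.83 and 2.65) and Nfat5 (2.98 and 2.61) upward and Camk1 (-2.16 and -2.50) downward. Of 18 tested MAP kinases Mapk13, a p38 isoform, was lower in AhR-deficient BMDMs in both states (-2.10 and -2.49, adjusted p = 0.0015 and 2.0e-04), and after LPS Rps6ka5, the kinase MSK1 (-1.85, SE 0.24, adjusted p = 1.1e-05), was 1 of 3 called lower.

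Further lists set Jun, Junb and Atf3 beside their relatives and beside stress genes. Of 9 other AP-1 bZIP factors Batf3 was higher (1.23) and Jdp2 lower (-1.05) without stimulation in AhR-deficient BMDMs, and none was called after LPS by any of the 3 tools, with 2 higher at an unadjusted p of at most 0.05. LPS raised 3 in wildtype and 4 in AhR-deficient BMDMs, among them Batf2 (3.48 and 4.05) and Mafg (1.23 and 1.73), and the lower calls of this list with LPS are not reported here. Of 8 tested genes of the integrated stress response, which includes Atf4, known as an activator of Atf3, LPS raised 7 in each genotype and lowered none, with medians of 1.49 and 2.16. Atf4 and Trib3 had a larger LPS effect in AhR-deficient BMDMs (0.74, adjusted p = 0.012, and 1.31, adjusted p = 0.011), with Atf4 at 190 CPM in wildtype and 264 CPM in AhR-deficient BMDMs after LPS. Between genotypes Chac1 was lower without stimulation (-1.88) and Atf5 lower after LPS (-1.02, adjusted p = 0.011, not called by DESeq2 or limma-voom). Of 7 tested heat shock genes LPS raised 3 and 4, with Hspa1b up by 3.84 and 5.28, and none was called between genotypes by any of the 3 tools, with 1 higher after LPS at an unadjusted p of at most 0.05.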

How the data were processed

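RNA was sequenced from 24 libraries, 6 per group. The authors aligned the reads to mm10 with GSNAP and counted uniquely mapped fragments per gene on the reverse strand with featureCounts (version 2.0.1) on Ensembl annotation, and they deposited the raw counts. The submitters' processing notes also name bcl2fastq (version 2.20.0). Library totals ran from 45106052 to 76992663 counts. The 92 spike-in rows held 1 count in all and were left out. Symbols were given for 55154 of 55421 genes, and Ddit3 was left out because its symbol is ambiguous.

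The counts were filtered with filterByExpr, which kept 16593 genes, scaled by TMM and fitted with edgeR's quasi-likelihood test (edgeR 4.0.16, R 4.3.3) in 1 model over all libraries, with Benjamini-Hochberg adjustment over all genes kept. The biological coefficient of variation was 49.1%. Calls needed an adjusted p of at most 0.05 with a log2 fold change of 1 or more in size, and for the interaction the adjusted p alone. Co-variation used deviations of log2(CPM + 0.5) from group means with 100000 permutations within groups (numpy 2.4.6, scipy 1.17.1). All 10 members were named, plus at most 4 called genes per list and comparison, by size of change among those averaging 1 CPM or more, and the genes most alike. Hdc and the libraries pointed out one by one were chosen after their values were seen. A gene that this rule would name is not reported here. The members and lists were chosen with earlier results of these data known.

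Alternatives were DESeq2 (1.42.0) and limma-voom (limma 3.58.1), other scaling, filters, samples, thresholds and covariates, and each library left out. Restricting the fit to libraries with Y-linked counts was chosen after seeing the data. On simulated data with 200 changed genes (log2 fold change 2) among 16593, edgeR recovered 86% for genotype without stimulation, 85.5% after LPS, 87% for LPS in wildtype, 81% in AhR-deficient cells and 36% for the interaction. Every simulated gene had the same dispersion. Promoter sequences came from RefSeq on GRCm38.p6, exons from GENCODE M21. Intervals on count ratios cover counting error only.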

Additional observations from a re-analysis of the deposited data

Results flagged for a closer look

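In 40 groups of 6 values (10 members in 4 groups), 5 groups held a library that stood apart from the rest by Dixon's criterion, and chance alone gives about 1 in 20 groups of continuous values. These were Fos in LPS-stimulated wildtype library 29 (9.06 CPM), Jun in unstimulated wildtype library 33 (11.3 CPM), Nr4a1 in unstimulated wildtype library 25 (1.44 CPM), and Fosb in unstimulated AhR-deficient library 27 (0.0222 CPM) and LPS-stimulated AhR-deficient library 40 (0.172 CPM). The Fosb value of library 27 rests on 2 counts with the other 5 libraries at 0, so any count would have stood apart and the 1 in 20 does not apply to it, and that of library 40 rests on 9 counts. The LPS effect on Atf3 differed between genotypes, with an interaction of 1.45 on the log2 scale (edgeR, adjusted p = 0.0016).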

How the results depend on the processing

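Of 1727 alternative values of the 50 member results, 1694 stayed on the same side of the threshold, 32 newly passed it and 1 no longer passed it. Of the 1694, 34 values of 11 results had the other sign, none of them called in either fit (adjusted p of 0.69 or more), and no called value changed sign. The exception was Nr4a1 for genotype without stimulation, -2.03 with an adjusted p of 0.061 when the 2 groups were fitted alone. The members called there numbered 2, and 1 with a mean of at least 1 CPM, a filter that removes Fosb. They numbered 0 when the groups were fitted alone, where Fosb fell to the filter, 3 with the length slope (adding Egr3), 4 with no minimum fold change, and 2 without any 1 library. For genotype after LPS 1 member was called, and 3 with DESeq2 or the length slope as a covariate. There were 2 with limma-voom, runs as a factor, total library size, no minimum fold change, or the libraries with Y-linked counts, and 1 to 2 when libraries were left out. The additional calls were Nr4a1, Egr3, Fosb or Dusp1. The LPS counts of 5 stayed between 5 and 6 in wildtype and between 5 and 7 in AhR-deficient BMDMs. The interaction gave 1 call, and 3 with the length slope, adding Jun (0.89, adjusted p = 0.0068) and Junb (0.51, adjusted p = 0.038). Co-varying pairs numbered 13, between 7 and 16 when libraries were left out, and 0 within group and run. Where no construction is given, the cause was not tested. Fosb is limited by its counts. No paired analysis was possible because the labels give no pairs, as the library numbers 17 to 40 each belong to 1 library. The runs as a factor were fitted instead. The 2 libraries without Y-linked counts were unstimulated wildtype 34 and LPS-stimulated wildtype 38. No AhR-deficient library lacked such counts, so sex as read from them was not balanced between the genotypes.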
